A study of Mus musculus with 52 samples.

Results

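RNA sequencing of non-ciliated Cilia-APEX-IMCD3 cells compared 1 base-edited Wdr34 clone, sequenced as 4 libraries, with 4 control clones, sequenced as 16 libraries. These 20 libraries and 5 clones were chosen by their labels from 52 libraries in the whole series, which fall into 13 groups by clone and ciliated or non-ciliated state. IMCD3 is a mouse kidney line from the inner medullary collecting duct, and Cilia-APEX-IMCD3 cells carry in addition the peroxidase APEX2 directed to the cilium. All 20 libraries carry that background, and by the labels all were grown in medium with 10% fetal bovine serum. The Wdr34 clone is labelled as a homozygous mutant. It had been made with BE4-Gam, a cytosine base editor that turns C into T near a guide RNA target, and was grown from a single sorted cell. The controls are clones of the same line that received BE4-Gam and the guide plasmid without a target sequence, and they are called here control AB and controls 1, 2 and 3. The 4 libraries of a clone are technical replicates. Except where clones are counted, p-values below take libraries as samples. They set a difference against the spread of libraries within the 5 clones and between the 4 control clones. The spread between mutant clones does not enter them. Whether a difference came with the Wdr34 edit or with the history of that 1 clone cannot be told apart, and an exact permutation test of 1 clone against 4 cannot give a p below 0.2.

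WDR34 is an intermediate chain of cytoplasmic dynein-2, the motor that carries intraflagellar transport (IFT) trains from the tip of the cilium back to its base. It pairs with WDR60 on the heavy chain DYNC2H1, and together with light intermediate and light chains they form the working motor. Mutations of dynein-2 subunits cause short rib thoracic dysplasia in humans, and primary cilia of the kidney tubule and of the growth plate need the motor for the traffic of hedgehog pathway proteins. Cycling cells take their cilium down before mitosis. The share of cells with a cilium was not measured here, and non-ciliated is the name the labels give.

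By the methods of the study, the allele made in this set is the missense change R183W. The labels of the clone name no allele. Codon 183 of Wdr34 reads CGG, and a C-to-T change of its first base gives TGG. The edited base lies at chr2:30034764 (GRCm38, minus strand, transcript ENSMUST00000113711), 1 base from the 3′ end of exon 3 of 9 (chr2:30034763-30034872). The guide target and its PAM, the short motif that Cas9 needs beside its target, are shown because they place the edit. The target C, at position 5 of 19 counted from the 5′ end, and the PAM are in capitals:

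Wdr34 target (chr2:30034747-30034768): tggtCggtgagtgagagctTGG

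The first 6 bases of this target match the end of exon 3 and the other 13 run past it, so the edit sits at an exon border. The remaining bases were not compared with a genome sequence. Reads across this border were not used here, so splicing was not measured.

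Total counts ran from 16442600 to 20505629 in the Wdr34 libraries and from 15617398 to 21085697 in the control libraries. Levels below are CPM, the counts of a gene scaled to a common library total, and they compare the same gene between libraries, not genes with each other. A pair of features of the controls touch many results. Control 2 stood apart along the first principal component, which held 52.2% of the variance, with 4.12 CPM of Cdh1 and 2.79 CPM of Epcam against 242 to 381 and 174 to 377 CPM in the other control clones. Library 1 of control AB stood apart from the other 3 libraries of that clone. The number of genes whose clone means differed more than 2-fold was 675 between the Wdr34 clone and control 1, 937 from control AB, 959 from control 3 and 1914 from control 2. Between control clones that number ran from 830 to 2064, so the Wdr34 clone was no farther from the controls than they were from each other. Some markers of the collecting duct and ureteric epithelium were present in the Wdr34 clone (for example 667 CPM of Krt8 and 113 CPM of Pax2). Gata3, Aqp3 and Scnn1a were low, at 0.699, 0.166 and 1.21 CPM. The list had a summed level of 2556 to 2616 CPM against 1172 to 3601 CPM in the controls, and 0 of 11 tested members passed the test. Aqp2, the water channel of the principal cell, had no count in any of the 20 libraries. Of other cell types, the leukocyte list was at 15.4 to 20.8 CPM against 22.4 to 57.6 CPM in the controls, carried mostly by Csf1r, which was 1 of 3 tested members called, lower (-1.17, adjusted p = 0.0130), with Adgre1, Itgam and Cd3e at 0. The proximal tubule list was at 21.3 to 25.4 CPM against 18.1 to 304 CPM, with 1 of 3 tested members called lower, Lrp2. The fibroblast list summed to 2.21 to 3.01 CPM against 2.57 to 6.35 CPM. The podocyte list, with 115 CPM of Podxl, was at 123 to 134 CPM against 68.1 to 157 CPM. The intercalated cell list was at 21.9 to 23.4 CPM against 11.7 to 26.9 CPM. No tested member of these 2 lists was called. The endothelial and thick ascending limb lists were at or near 0 in the Wdr34 clone, and their part in the results was not tested.

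The mRNA of the targeted gene did not pass the test. It was at 27.4, 27.5, 24.8 and 29.1 CPM in the 4 Wdr34 libraries. The 16 control libraries ran from 19.8 to 40.3, with a median of 24.9 CPM, and the clone means were 31.1, 21.2, 24.3 and 26.2 CPM for controls AB, 1, 2 and 3. The Wdr34 libraries lay inside this range, with a log2 fold change of 0.08 ± 0.14 (SE), adjusted p = 0.732 by edgeR's quasi-likelihood test, so the level of the mRNA neither checks nor contradicts the label of a missense mutant. Of 10 tested dynein-2 subunits, 0 were called. Dync2h1, the heavy chain, was at 17.4, 19.6, 18.9 and 17.7 CPM against 11.2 to 29.0 CPM in the controls, a log2 fold change of -0.30 ± 0.15 (SE), adjusted p = 0.211. Wdr60, the partner intermediate chain, gave 0.12 (adjusted p = 0.403), and Dync2li1, the light intermediate chain, -0.20 (adjusted p = 0.150). The light chain Dynlrb2 had no count in the Wdr34 libraries or in the control libraries and was not tested.

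A gene was called where the adjusted p (Benjamini-Hochberg over the 12355 genes tested) was under 0.05 and the log2 fold change was at least 1 in size. The Wdr34 clone had 34 genes called higher, 0.275% of those tested, and 243 called lower, 1.97%, or 2.24% in both directions. With the adjusted p alone, 728 genes were higher (5.89%) and 692 lower (5.6%), 11.5% in all, so the excess of lower genes appeared with the fold limit. DESeq2 with the same limits called 43 higher (0.246%) and 459 lower (2.62%) of 17496 genes, 2.87% in all. Genes whose 4 Wdr34 libraries all lay above the 16 control libraries numbered 471 (3.81%), and 281 lay below all of them (2.27%), 6.09% in all. By clone means instead of libraries, 2269 genes lay above the 4 control means (18.4%) and 2090 below (16.9%), 35.3% in all. Both called and outside the range of the 16 control libraries were 27 higher genes (0.219%) and 110 lower genes (0.89%), 1.11% in all. Among the genes called lower the median log2 fold change was -2.18, against 1.48 among those called higher and -0.02 over all genes tested.

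**Figure D1:**
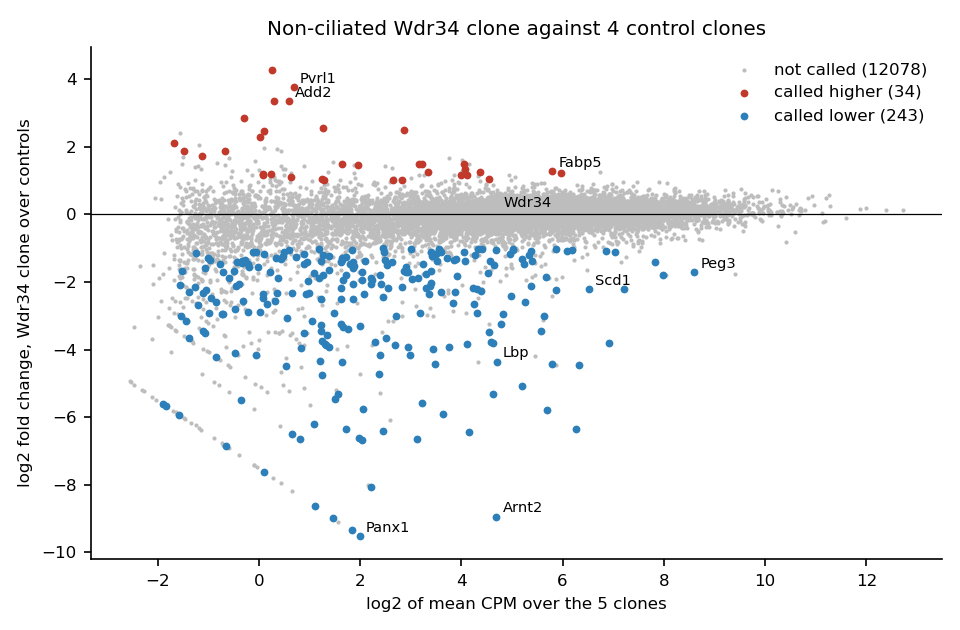
Mean level (log2 of CPM over the 5 clones) on the x axis and log2 fold change of the Wdr34 clone against the 4 control clones on the y axis, 1 point a gene tested, with called genes coloured by direction and the largest named ones labelled. The 243 lower genes reach farther from 0 than the 34 higher ones. Genes with no count in the Wdr34 clone are drawn at their fitted values, which depend on the prior count.

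The size of these lists rests on the control clones as much as on the Wdr34 clone. Control 2 was the lowest control for 18 of the 34 higher genes and the highest for 125 of the 243 lower genes. It was the highest control for 32.5% of all genes tested, a share to set beside the lower genes only. The like share for the lowest control was not counted. Without library 1 of control AB the counts became 45 and 324, and without any 1 Wdr34 library they were 21 to 30 higher and 95 to 127 lower. When counts were summed per clone, so that 1 Wdr34 value met 4 control values, edgeR called 0 of 13856 genes, with 276 at an unadjusted p under 0.05 (1.99%). limma's voom with the clone as a block called 1 gene higher and 1 lower, with 568 at an unadjusted p under 0.05. The higher one was Cxcl10, described below. The lower one, Adgrg1, an adhesion G-protein coupled receptor named here after its values were seen, was at 101, 89.2, 101 and 97.7 CPM against 208 to 294 CPM in the controls, a log2 fold change of -1.41 ± 0.11 (SE), adjusted p = 4.79e-08 by edgeR. So the calls below count libraries, and for nearly every gene they did not survive a test that counts clones. Nor does a call mean that the libraries were separate. All 4 Wdr34 libraries lay outside the range of the 16 control libraries for 27 of the 34 higher and 110 of the 243 lower genes.

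4 genes were close to silent in the Wdr34 clone (under 0.1 CPM) while each control clone held at least 1 CPM, a rule chosen after the values were seen. The same count was 0 for control AB, 0 for control 1, 36 for control 2 and 2 for control 3. Arnt2, a bHLH-PAS transcription factor, partner of SIM1 in neurons and kin of the hypoxia partner ARNT, was at 0.0620, 0.0510, 0 and 0.121 CPM in the Wdr34 libraries, 4 counts in all. The control clones held 24.4, 32.3, 47.7 and 24.7 CPM, and the 16 control libraries ran from 16.6 to 49.0, with a median of 29.5 CPM. This is 549-fold lower (95% exact Poisson interval of the 4 counts 214 to 2014, counting error only), and edgeR gave an adjusted p of 2.01e-10.

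Panx1, which forms plasma membrane channels that release ATP, had no count in 4 of 4 Wdr34 libraries against 3.10 to 6.17 CPM in the control libraries. That is at least 112-fold lower, taking 3 counts over the group as the floor (adjusted p = 2.01e-10). Plagl1, an imprinted zinc finger gene of growth control, had 3 counts against clone means of 5.43, 9.21, 4.06 and 1.03 CPM, 112-fold lower (interval 38.3 to 543, adjusted p = 4.68e-04). Sept3, a septin best known from neurons, had no count against clone means of 7.54, 2.33, 1.07 and 2.79 CPM, at least 77.9-fold lower (adjusted p = 5.75e-04). For these 4 genes the Wdr34 and control libraries did not overlap.

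The 4 loci lie on different chromosomes: Arnt2 at chr7:84246274-84411741, Panx1 at chr9:15005785-15045478, Plagl1 at chr10:13090832-13131694 and Sept3 at chr15:82268802-82294574 (RefSeq, GRCm38.p6). The nearest tested genes given here were not called at any of them. Abhd17c beside Arnt2 had a log2 fold change of 0.05, Mre11a beside Panx1 0.25, Ltv1 beside Plagl1 0.28 and Cenpm beside Sept3 -0.02. On the other side, Gm2115 near Arnt2 (-2.42, adjusted p = 0.103) and Vstm5 near Panx1 (-3.15, adjusted p = 0.157) had low values that did not pass the test, and Sf3b5 near Plagl1 had 0.35.

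The promoter of Panx1 is shown because this gene had no read in the clone and a steady level in every control. It holds 17 CG dinucleotides, in capitals, the sites at which vertebrate promoters can be methylated (250 bases before the start of the gene, minus strand, RefSeq GRCm38.p6):

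Panx1 promoter (chr9:15045479-15045728): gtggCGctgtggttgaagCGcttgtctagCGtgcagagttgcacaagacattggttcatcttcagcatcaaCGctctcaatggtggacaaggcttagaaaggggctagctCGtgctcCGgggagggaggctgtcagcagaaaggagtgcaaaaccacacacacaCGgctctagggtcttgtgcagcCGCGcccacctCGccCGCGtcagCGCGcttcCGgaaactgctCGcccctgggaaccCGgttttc

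The letters CG read the same on both strands, and 91.7% of 27025 promoter windows of the same length hold at least 1, with a median of 6. As many as 17 were found in 23.6% of windows. Arnt2 has 31, reached by 4.93% of windows, and Plagl1 has 19, reached by 19.6%. Sept3 was not matched in the promoter table. Methylation was not measured in these libraries, and the counts of CG describe the sequence alone.

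**Figure D2:**
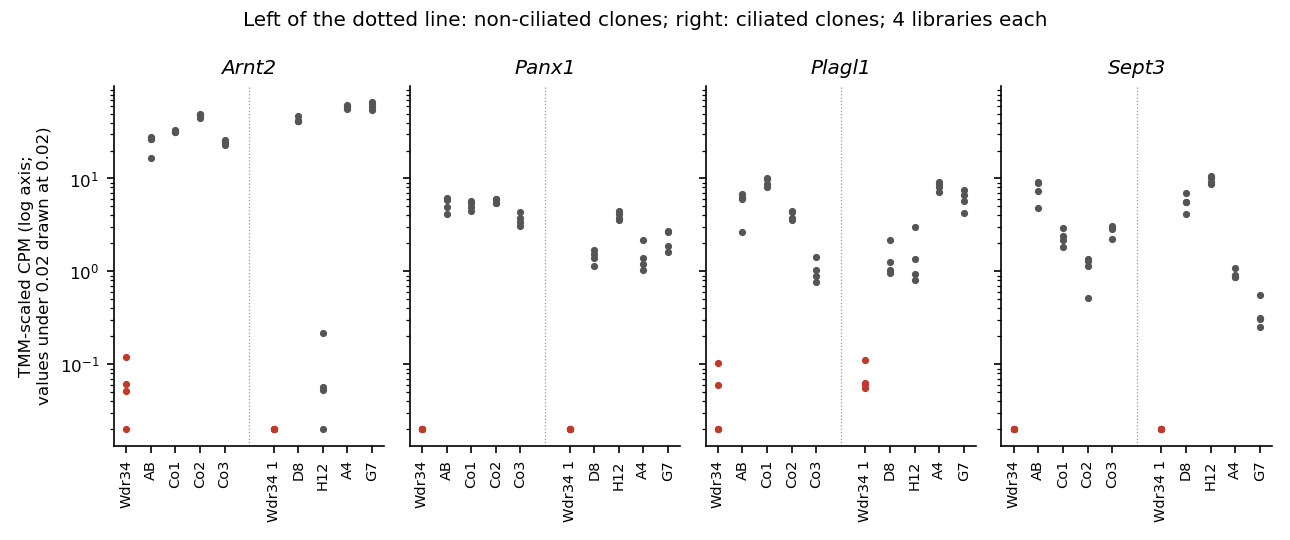
Level (CPM, log axis, values under 0.02 drawn at 0.02) of Arnt2, Panx1, Plagl1 and Sept3, 1 point a library, in the Wdr34 clone and in each control clone, with the ciliated Wdr34 clone 1 and the 4 ciliated control clones beside them. The Wdr34 libraries lie at or near 0 for each of the 4 genes, and the ciliated control H12 lies there for Arnt2.

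In all, 9 of the genes called lower had no count in the Wdr34 clone. Beside Panx1 and Sept3 these were Pitx1, Myo5c and, at a lower level in the controls, Cxx1a, Zfp454, Tnxb, 4930562F07Rik and Ceacam1. The last 5 were at least 7.37-fold to at least 30.2-fold lower than the mean of the control clones, but some control clones were themselves near 0. Cxx1a had no count in control 1 either. Zfp454 ran from 0 to 0.272 CPM in control 3. Tnxb ran from 0 to 0.101 CPM and Ceacam1 from 0 to 0.144 CPM in control AB. Pitx1, a homeobox gene of hindlimb and pituitary, had no count in the Wdr34 clone against clone means of 14.03, 2.52, 0.447 and 0.736 CPM, at least 101-fold lower (adjusted p = 0.0189). Myo5c, an unconventional myosin that moves secretory granules in epithelial cells, had no count against 7.55, 0.442, 1.64 and 1.05 CPM, at least 60.6-fold lower (adjusted p = 0.00770). In both, control AB was far above the other control clones. The levels of controls 1 to 3 were 0.447 to 2.52 CPM for Pitx1 and 0.442 to 1.64 CPM for Myo5c. Npy2r, a receptor for neuropeptide Y, had 5 counts, 92.2-fold lower (interval 39.5 to 284), but control AB was at 0.237 CPM.

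The 15 named genes called higher were chosen by size among those outside the control range and at 5 CPM or more. Those described below are grouped loosely by known role, and no role was tested for enrichment. Pvrl1, which codes for the adherens junction protein nectin-1, was at 6.44, 5.77, 7.64 and 4.96 CPM in the Wdr34 libraries. The control libraries ran from 0 to 1.36, with a median of 0.422 CPM, so the groups did not overlap, and the log2 fold change was 3.77 ± 0.56 (SE), adjusted p = 3.45e-04. Add2, which codes for the beta subunit of the membrane skeleton protein adducin, was at 4.89, 6.38, 5.18 and 5.21 CPM against 0 to 1.36 CPM, a log2 fold change of 3.36 ± 0.52 (SE), adjusted p = 4.68e-04. These were the steepest rises among the 15 named genes, and both genes were near the limit of detection in most control libraries. Over all genes called higher the log2 fold change reached 4.26. Tnk1, which this rule did not name and which was chosen after its values were seen, was also called higher. It was at 4.96, 4.08, 5.81 and 4.84 CPM in the Wdr34 libraries against 0 to 0.618 CPM in the control libraries.

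Among secreted signals, Nog codes for noggin, which binds and blocks BMPs. Its mRNA was at 5.51, 8.52, 7.01 and 7.45 CPM against 0.240 to 2.995 CPM, a log2 fold change of 2.54 ± 0.44 (SE), adjusted p = 0.00107. Cxcl10, an interferon-induced chemokine, was at 18.3, 19.7, 17.9 and 18.6 CPM in the 4 Wdr34 libraries. The control clones held 9.09, 7.74, 4.59 and 4.86 CPM, and the log2 fold change was 1.503 ± 0.20 (SE), adjusted p = 1.46e-04. Each Wdr34 library lay well above the highest control library, at 9.76 CPM.

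Of the regulators, Irx1, an Iroquois homeobox gene of the developing nephron, was at 19.95, 21.6, 15.6 and 19.6 CPM against 3.10 to 11.0 CPM (log2 fold change 1.49 ± 0.23 (SE), adjusted p = 4.33e-04). Fosl1, an AP-1 subunit, was at 40.1, 40.6, 38.4 and 34.6 CPM against 6.41 to 26.6 CPM (log2 fold change 1.25 ± 0.30 (SE), adjusted p = 0.0115). Hmga1, a chromatin protein of growing cells, rose by 1.18 (adjusted p = 0.00851), and Rgs16, which shortens signaling by Gi and Gq proteins, by 2.48 (adjusted p = 0.0261). The level of Rgs16 was 21.2 ± 2.52 CPM (SD, n = 4 libraries) in the Wdr34 clone and 5.53, 3.23, 0.0507 and 6.30 CPM in the control clones, so the near silence of control 2 enters its fold change. Without control 1 Rgs16 lost its call, without control 2, Hmga1 and Abcg2 did, and without control AB, Abcg2 did.

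The metabolic and housekeeping genes were Cth, the enzyme that makes cysteine from cystathionine (32.6 ± 1.03 CPM, log2 fold change 1.34, adjusted p = 0.0124), Ccbl2, a kynurenine aminotransferase (log2 fold change 1.26), and Fabp5, a fatty acid binding protein (log2 fold change 1.27). Gar1, a protein of the snoRNPs that place pseudouridine in ribosomal RNA, was at 117, 136, 116 and 96.0 CPM against 37.1 to 72.8 CPM, with a log2 fold change of 1.22 ± 0.13 (SE), adjusted p = 1.12e-05. Abcg2, an efflux transporter, was at 39.9 ± 2.50 CPM (log2 fold change 1.04, adjusted p = 0.0375). Rpl34, a ribosomal protein gene, gave 1.48, which is uncertain because it has many processed copies in the genome and the counting of shared reads is not stated. Cth, Ccbl2, Fabp5, Gar1 and Rpl34 lie on chromosome 3, treated below.

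**Figure D3:**
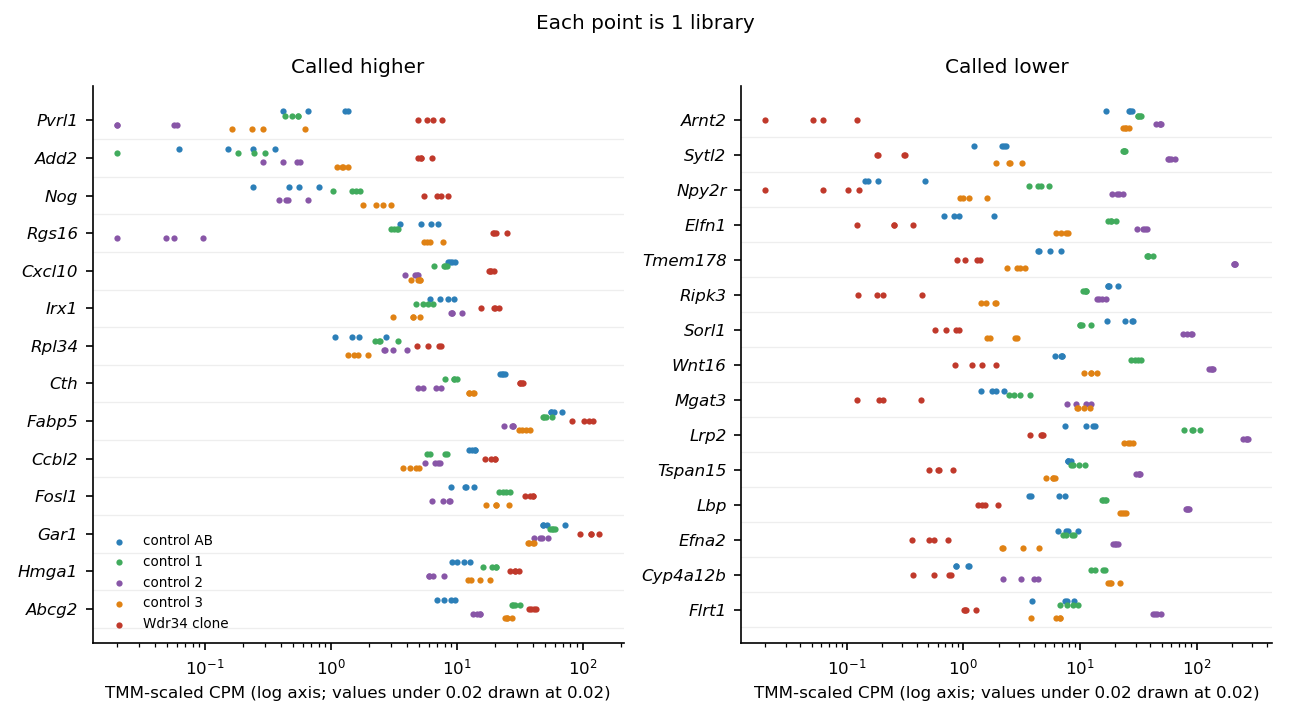
Level (CPM, log axis, values under 0.02 drawn at 0.02) of the named genes called higher (left) and lower (right), 1 point a library, with a colour for each clone. For these genes every Wdr34 library lies outside the range of the 16 control libraries, and the control clones are far apart for several of the lower genes, as for Tmem178 with clone means of 2.91 to 211 CPM.

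Several of the genes called lower had a wide spread among the controls. Ripk3, the kinase of necroptosis, was at 0.124, 0.204, 0.442 and 0.182 CPM in the Wdr34 libraries. Its control clones held 18.4, 11.1, 15.1 and 1.68 CPM, with control 3 the lowest, and the log2 fold change was -5.57 ± 0.91 (SE), adjusted p = 7.47e-04. Tspan15, a tetraspanin that guides the protease ADAM10 to cadherins, was at 0.620, 0.510, 0.821 and 0.605 CPM against 5.07 to 32.5 CPM (log2 fold change -4.42 ± 0.71 (SE), adjusted p = 7.27e-04). Mgat3, which adds the bisecting GlcNAc to N-glycans, was at 0.434, 0.204, 0.189 and 0.121 CPM against 1.42 to 12.3 CPM (log2 fold change -4.71 ± 0.80 (SE), adjusted p = 0.00103). Efna2, a membrane-bound ephrin ligand, fell by 4.15 on the log2 scale (adjusted p = 9.17e-04), from 2.12 to 21.2 CPM in the controls to 0.543 CPM. In these 4 genes the control range began at least at 1.41 CPM, above each Wdr34 library.

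A second set was also lower than every control library and was led by control 2, as were Tspan15 and Efna2 above. Lrp2, megalin, the endocytic receptor of the proximal tubule, was at 4.77, 3.73, 4.74 and 4.66 CPM against control clone means of 11.3, 92.0, 265 and 26.2 CPM (log2 fold change -4.46 ± 1.13 (SE), adjusted p = 0.0154). Wnt16, a secreted Wnt ligand, was at 1.18, 1.43, 1.89 and 0.848 CPM against 6.73, 30.6, 133 and 12.4 CPM (log2 fold change -5.09 ± 1.20 (SE), adjusted p = 0.0107). Tmem178, whose product sits in the membrane of the endoplasmic reticulum, was at 1.15 ± 0.231 CPM (SD, n = 4 libraries) against 5.32, 38.9, 211 and 2.91 CPM. In each of these 3 genes control 2 was far above the others, and control AB (for Lrp2 and Wnt16) or control 3 (for Tmem178) was the nearest to the Wdr34 clone.

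Of the same shape were Sorl1, a sorting receptor of the Golgi and endosomes (log2 fold change -5.31, adjusted p = 0.0130), Sytl2, a Rab27 effector of granule docking (-6.43, adjusted p = 0.0134), Lbp, which binds bacterial lipopolysaccharide (-4.35, adjusted p = 0.00770), and Flrt1, a cell surface partner of FGF receptors (-3.92, adjusted p = 0.00874). Elfn1, a synaptic leucine-rich repeat protein, gave -5.91 (adjusted p = 0.00634). Cyp4a12b, a fatty acid hydroxylase of the kidney, was led by control 3 instead. It gave -3.92 (adjusted p = 0.0186) and has near-identical neighbours among the Cyp4a genes, so its counts are uncertain. Its control AB mean was 0.981 CPM, close to 0.619 CPM in the Wdr34 clone.

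Lists of genes by role, chosen with earlier results of these data known, were read as counts beside the share called over all genes (0.275% higher and 1.97% lower). The machinery of the cilium showed no call in most lists. Of 6 tested IFT-A genes, 17 IFT-B genes and 9 BBSome genes, 0 were called, with medians of -0.14, 0.03 and -0.09 on the log2 scale. Of 24 genes of the transition zone and nephronophthisis, 1 was called lower. It was Dcdc2a, a doublecortin protein of the axoneme, at 1.98, 2.40, 3.03 and 2.85 CPM against clone means of 3.84, 19.7, 75.8 and 14.4 CPM (log2 fold change -3.47 ± 0.95 (SE), adjusted p = 0.0235), and the libraries overlapped with those of control AB. Of 12 tested hedgehog pathway genes, 0 were called and the median was 0.01.

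In the list of Golgi and vesicle traffic, 3 of 37 genes were called lower and 0 higher, with a median of -0.05. Rab6b, a Rab GTPase of retrograde traffic from the Golgi to the endoplasmic reticulum, was at 2.04, 3.37, 2.72 and 2.91 CPM against 7.85 to 33.3 CPM, a log2 fold change of -2.63 ± 0.45 (SE), adjusted p = 0.00102. Zdhhc14, a palmitoyltransferase, was lower by a smaller step (-1.26 ± 0.32 (SE), adjusted p = 0.0150) and overlapped with the controls. Myo5c, with no count, was the third. Of the 8 genes that the study names in both states, 1 rose (Pvrl1) and 4 fell (Dcdc2a, Rab6b, Myo5c and Zdhhc14). Elmod1 and Rgs2 did not pass the test, with log2 fold changes of -2.63 (adjusted p = 0.180) and 1.30 (adjusted p = 0.0667). The study picked these 8 genes on libraries of this series, so their directions are not independent evidence.

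Transport genes of the collecting duct were lower in 3 of 17 tested, with a median of -0.32. Kcnj16, a potassium channel subunit of the basolateral membrane, was at 2.85, 2.71, 3.03 and 3.57 CPM against 7.13 to 18.7 CPM, a log2 fold change of -2.03 ± 0.24 (SE), adjusted p = 2.73e-05. Nr3c2, the mineralocorticoid receptor through which aldosterone acts, was at 1.49, 1.07, 1.07 and 1.33 CPM against 1.73 to 7.43 CPM, a log2 fold change of -1.95 ± 0.29 (SE), adjusted p = 3.45e-04. Both lay below every control library. Hsd11b2, the enzyme that keeps cortisol off that receptor, was at 0.196 CPM (log2 fold change -2.11, adjusted p = 0.0316), overlapped with control 1 and lost its call without control 3. Of 22 kidney transcription factors, Irx1 rose and Pitx1 fell, and of 23 Hox genes 0 were called.

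Of 18 epithelial genes, 2 were called lower and 0 higher, while the median was 0.23 and 12 had positive values. Control 2 was low for main epithelial genes, with 40.0 CPM of Krt8 and 109 CPM of Krt18. The Wdr34 clone held 667 and 809 CPM of these, and the other controls 567 to 747 and 831 to 1013 CPM. The part of control 2 in the median was not tested. Ehf, an ETS factor of epithelia, was at 0.973 CPM against clone means of 17.0, 10.9, 1.06 and 2.47 CPM (log2 fold change -3.02 ± 0.95 (SE), adjusted p = 0.0431) and lost its call without control AB or control 1. Muc1, a membrane mucin, gave -1.28 (adjusted p = 0.0302), and its Wdr34 libraries overlapped with controls 1 and 3. Of 25 cadherins, claudins and nectins, 1 rose, Pvrl1, and of 7 tested mesenchymal markers 0 were called. Of 24 actin cytoskeleton genes 0 were called.

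Of matrix genes, all 14 tested collagens had negative log2 fold changes, with a median of -0.51, and 0 were called. Of 24 matrix glycoproteins and proteases, 2 fell. Nid1, the basement membrane linker nidogen-1, had 5 counts in all and was 24.1-fold lower (interval 10.3 to 74.3, adjusted p = 0.0134), with control AB at 0.257 CPM. Loxl3, a lysyl oxidase that cross-links collagen, gave -1.40 ± 0.38 (SE), adjusted p = 0.0212 on the log2 scale and lost its call without control 2. Of 22 integrins and laminins 0 were called.

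Of 15 Notch pathway genes, the ligands Dll4 (-2.88, adjusted p = 0.0228) and Jag2 (-2.18, adjusted p = 0.0174) fell and Hey2, a transcriptional target of the pathway, rose. The Wdr34 libraries overlapped with control AB for Dll4 and with control 1 for Jag2. Hey2 was at 1.05, 1.17, 0.758 and 1.09 CPM against 0.0548 to 0.539 CPM (log2 fold change 1.73 ± 0.35 (SE), adjusted p = 0.00397), a low level at which the groups still did not overlap. Of 37 Wnt and planar polarity genes, 2 fell, the ligand Wnt16 and Tcf7, a transcription factor of the canonical pathway. Tcf7 was at 2.48, 2.25, 3.22 and 2.66 CPM against 6.25 to 10.8, with a median of 8.54 CPM in the controls (log2 fold change -1.71 ± 0.16 (SE), adjusted p = 2.55e-06). The 4 control clones lay close together for Tcf7, at 9.44, 8.41, 7.44 and 9.54 CPM.

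Of 23 genes of the BMP and TGF-beta families, the antagonist Nog rose and the ligand Bmp3 fell (-3.97, adjusted p = 0.0331), the latter led by control 2 at 39.0 CPM and without a call when control 3 was left out. Of 31 YAP and SRF targets, Fosl1 rose and Egr3 fell (-2.96, adjusted p = 0.0283, lost without control 3). Fgfr3, an FGF receptor that restrains bone growth, was the 1 called of 28 EGF and FGF genes (-1.28, adjusted p = 0.0328), and Efna2 and Ntn1, the guidance cue netrin-1, were the 2 called of 41 guidance genes. Ntn1, at 16.6 CPM, lay between control 3 and the other controls (-1.33, adjusted p = 0.0499). Fgfr3 lost its call without control 2 or 3, and Ntn1 without control AB, 1 or 2. Of 16 VEGF and angiogenesis genes 0 were called, and of 16 regulators of G-protein signaling Rgs16 alone.

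Inflammatory genes were mixed. Of 16 cytokines and chemokines, Cxcl10 rose, while Il11 (-2.35, adjusted p = 0.0465) and Cxcl5 (-1.71, adjusted p = 0.0397) fell, and both of the latter overlapped with control AB and lost their call when any 1 of controls 1, 2 and 3 was left out. The interferon response list had a median of -0.37 over 27 genes and 1 call, Ifit3, an interferon-induced antiviral protein. Ifit3 was at 39.6, 34.1, 39.0 and 41.2 CPM against clone means of 38.1, 162, 349 and 156 CPM (log2 fold change -2.20 ± 0.61 (SE), adjusted p = 0.0257), level with control AB, and lost its call without control 3.

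Genes of growth and metabolism gave few calls. Of 38 DNA replication genes, 30 mitosis genes, 21 p53 targets and 19 genes of Nrf2 and the metallothioneins, 0 were called, with medians of 0.08, 0.03, 0.20 and -0.43. Of 28 genes of ER stress and Atf4, 1 rose, Cth. Of 26 genes of cholesterol and lipid synthesis, 1 fell, Scd1, the desaturase that makes oleate. Scd1 was at 22.8, 22.7, 23.5 and 24.5 CPM in the Wdr34 libraries. The control libraries ran from 71.6 to 183, with a median of 100.5 CPM, and the log2 fold change was -2.22 ± 0.24 (SE), adjusted p = 1.15e-05. The groups were far from overlapping. Of 25 glycolysis and hypoxia genes, 10 prostaglandin genes, 6 tested IGF binding proteins and 9 tested Nfat5 targets, 0 were called.

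Imprinted growth genes had the lowest median of the lists beside the 8 genes of the study, -0.87, with 4 of 13 tested called lower and 0 higher. Beside Plagl1, Mest was at 2.60, 2.91, 1.83 and 3.996 CPM against 7.84 to 20.9 CPM (log2 fold change -2.11 ± 0.26 (SE), adjusted p = 6.93e-05), and each of its Wdr34 libraries lay below the controls. Peg3, a paternally expressed zinc finger gene, was at 141, 131, 132 and 143 CPM against clone means of 187, 512, 713 and 386 CPM (log2 fold change -1.72 ± 0.43 (SE), adjusted p = 0.0143). Library 1 of control AB alone, at 62.9 CPM, was below the Wdr34 libraries. H19, a maternally expressed noncoding RNA, was at 2.16 CPM against 2.33, 11.0, 83.1 and 21.6 CPM (log2 fold change -3.77, adjusted p = 0.0346), next to control AB, and lost its call without control 3. Allele-specific expression was not measured.

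Several of the calls named above needed all 4 Wdr34 libraries. Among genes called higher, Rgs16 and Abcg2 lost their call without any 1 of the 4, and Fosl1 without replicate 2. Among genes called lower, the same held without any 1 of the 4 for Npy2r, Tmem178, Lrp2, Cyp4a12b, Dcdc2a, Pitx1, Loxl3, Ehf, Muc1, Hsd11b2, Jag2, Bmp3, Fgfr3, Ntn1, Il11, Cxcl5, Ifit3 and H19. Sytl2, Sorl1, Nid1, Dll4, Egr3 and Peg3 lost their call without replicate 1, 2 or 3, and Zdhhc14 without replicate 3 or 4. Single control libraries mattered for Abcg2 (any 1 of control AB), Il11 (any 1 of controls 1, 2 and 3), Ehf (replicates 2, 3 and 4 of control AB and 1, 3 and 4 of control 1) and Ntn1 (replicates 2, 3 and 4 of control AB and any 1 of controls 1 and 2). All of these genes kept the sign of their fold change.

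By position, chromosome 3 stood out. Its 603 tested genes had a median log2 fold change of 0.32, and 78.6% were positive, against -0.02 and 47.8% over all genes tested. It held 9 of the 34 genes called higher (26.5%) with 4.88% of the genes tested, and 140 of the 728 genes higher by adjusted p alone. Those 140 are 23.2% of the chromosome's genes, against 5.003% of genes elsewhere. Medians over every run of 51 neighbouring genes along the chromosome were positive, 0.16 to 0.46 over 553 runs, with the highest at chr3:108591223-127553349 (GRCm38.p6), so the shift was not confined to 1 stretch.

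The called genes on chromosome 3 included Fabp5, Schip1, Slc22a15, Dennd2c, Gar1, Rpl34, Ccbl2 and Cth, with log2 fold changes of 1.03 to 1.48. The controls differed from each other there too. Against the mean of the 4 control clones, the chromosome's median log2 level was 0.36 in the Wdr34 clone, 0.31 in control AB, 0.05 in control 1, 0.01 in control 2 and -0.36 in control 3. So control 3 was the lowest, and the Wdr34 clone and control AB were close in this median but not along the chromosome. In the run with the highest median log2 fold change the Wdr34 clone was at 0.49 and control AB at 0.09, and in the run with the lowest they were at 0.24 and 0.35.

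Chromosome 19 had the opposite sign, with a median of -0.15 over 457 genes, 32.4% of them positive, and 21 genes called lower and 3 higher. Control 3 was highest there, at 0.19, and without it the median was -0.07. With all 4 controls the medians of all other chromosomes lay between -0.08 and 0.07. Shifts of single controls of a like size were seen on chromosome 1 (control 2, -0.43), chromosome 6 (control AB, -0.40) and chromosome 18 (control AB, -0.27). DNA copy number was not measured, and its part in these medians was not tested.

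**Figure D4:**
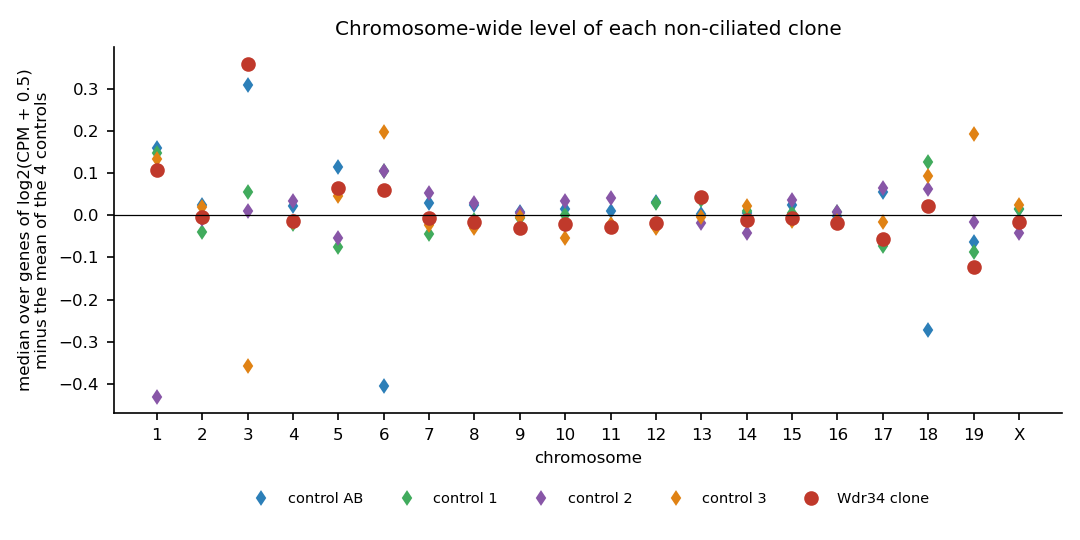
Median log2 level of the tested genes of each chromosome against the mean of the 4 control clones (y axis, log2 of CPM + 0.5), 1 point a clone, with chromosomes on the x axis. The Wdr34 clone is at 0.36 on chromosome 3 and -0.12 on chromosome 19, and single control clones depart on chromosomes 1, 3, 6, 18 and 19.

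The ciliated cells of the series gave libraries that the tests above did not use. They were the 4 libraries of ciliated Wdr34 clone 1 and 16 of ciliated controls D8, H12, A4 and G7. The series also holds another ciliated Wdr34 clone, which was not used here. The labels do not say whether a ciliated clone is the same as a non-ciliated one. By the methods of the study the ciliated cells were starved of serum to raise cilia, although their labels give 10% serum too, so cilia and starvation cannot be told apart in any difference between the states. Against its own controls, the ciliated Wdr34 clone 1 had 27 genes called higher (0.218% of 12380 tested) and 57 lower (0.46%), 0.679% in both directions. Of the 34 genes higher in the non-ciliated clone, 31 were tested there, 24 had the same sign (77.4%, against 52.3% of all genes with a positive value in non-ciliated cells) and 6 were called in the same direction. Of the 243 lower genes, 229 were tested, 191 had the same sign (83.4%, against 66.6% of all genes with a negative value) and 33 were called in the same direction. None of either list was called in the opposite direction.

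Arnt2 had no count in the ciliated Wdr34 clone 1, against 43.1, 0.0815, 59.0 and 60.9 CPM in controls D8, H12, A4 and G7. That was at least 923-fold lower than the control mean, although control H12 was itself near 0. Panx1 had no count there against 1.44, 3.98, 1.45 and 2.23 CPM, at least 51.5-fold lower, and Sept3 no count, at least 93.3-fold lower. Plagl1 had 5 counts, with levels of 0.0561, 0.0632, 0.0608 and 0.112 CPM against 1.36, 1.54, 8.28 and 6.07 CPM, a log2 fold change of -5.75 ± 0.99 (SE), adjusted p = 0.00355. Pitx1 had no count, at least 41.6-fold lower. So Arnt2, Panx1, Sept3, Plagl1 and Pitx1 were at or near 0 in the ciliated clone 1 too. Of the other genes with no count in the non-ciliated clone, Cxx1a had none here either, as in control A4, Zfp454 had 2 counts and Myo5c 6. Ceacam1, at 0.193 CPM, and Tnxb, at 0.158 CPM, lay within the range of the means of the ciliated control clones (0 to 2.10 and 0.0434 to 0.482 CPM), and 4930562F07Rik was at 0.115 CPM against clone means of 0.186 to 0.511 CPM.

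Among genes called higher, Pvrl1 was at 3.82, 3.35, 4.98 and 4.26 CPM in the ciliated clone against 0.220, 0.488, 0.146 and 0 CPM in its controls (log2 fold change 4.22 ± 0.67 (SE), adjusted p = 0.00174). Add2 gave 2.85 ± 0.59 (SE), adjusted p = 0.0124 and Irx1 1.52 ± 0.32 (SE), adjusted p = 0.0147. These were the 3 higher of 16 named genes called in both states. The 13 lower ones included Ripk3 (-4.62, adjusted p = 0.0103), Tspan15 (-7.27, adjusted p = 0.0431), Mgat3 (-4.42, adjusted p = 1.02e-04), Rab6b (-2.81, adjusted p = 3.29e-05) and Scd1 (-3.38, adjusted p = 0.00186). Scd1 was at 10.0, 10.2, 9.18 and 8.80 CPM there against 59.7, 66.0, 59.3 and 213 CPM.

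Of 15 named higher genes tested in the ciliated clone 8 had the same sign, and of 41 lower ones 39. Cxcl10 gave 0.04 ± 0.43 (SE), adjusted p = 0.972 and Fabp5 -0.02 ± 0.58 (SE), adjusted p = 0.990, while Fosl1 had -1.68 (adjusted p = 0.556). The difference between the states was tested as an interaction, which passed at an adjusted p under 0.05 for 138 of 12731 genes (1.08%). Lbp, Sorl1 and Kcnj16 were the named genes among them, each with a more negative fold change in the non-ciliated clone. The median of chromosome 3 was 0.26 in the ciliated clone, with 81.0% of 589 genes positive, and that of chromosome 19 was -0.14. Chromosome 19 did not stand out there, since chromosomes 4 and X were lower, at -0.16 and -0.15.

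**Figure D5:**
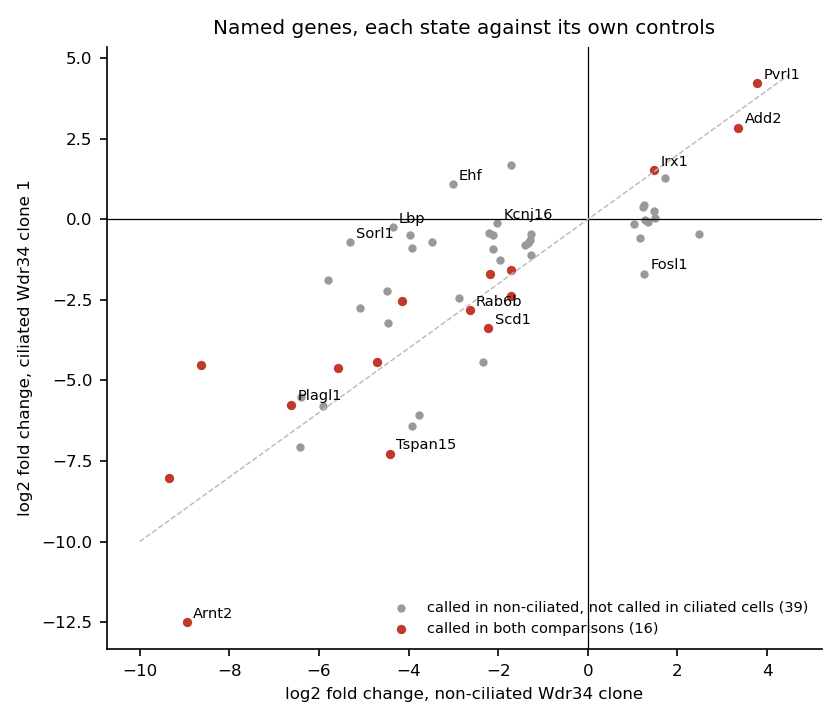
Log2 fold change of the non-ciliated Wdr34 clone against its controls (x axis) and of the ciliated Wdr34 clone 1 against its own controls (y axis), 1 point for each named called gene tested in both, with genes called in both states marked. Pvrl1 and Arnt2 lie in opposite corners, and the named genes of chromosome 3 (Cth, Fabp5, Ccbl2, Gar1 and Rpl34) lie between -0.09 and 0.43 on the y axis.

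A direct comparison with the non-ciliated Wdr60 clone, 4 libraries against 4, called 228 genes higher in the Wdr34 clone (1.95% of 11698 tested) and 430 lower (3.68%), 5.62% in both directions. All 34 genes higher against controls were tested here, and 20 were higher than in the Wdr60 clone as well. Of the 243 lower genes 165 were tested, of which 85 were lower than in the Wdr60 clone, 12 were higher and 68 did not pass the test. This sets 1 clone against 1 clone, so these differences cannot be told apart from differences between clones, and it uses the same 4 Wdr34 libraries as the comparison with controls, so its counts are not independent of that one.

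Arnt2 was at 30.4 CPM in the Wdr60 clone, well above the Wdr34 clone, with a log2 difference of -8.86 ± 0.26 (SE), adjusted p = 3.38e-08. Sept3 was at 2.42 CPM there. Panx1 at 0.220 CPM, Plagl1 at 0.0603 CPM and Pitx1 at 0 CPM were low in the Wdr60 clone too and were not tested. Rab6b and Dcdc2a were higher in the Wdr34 clone than in the Wdr60 clone, by 1.44 ± 0.23 (SE), adjusted p = 8.07e-04 and 3.16 ± 0.28 (SE), adjusted p = 2.06e-05. Scd1 was lower (-3.03 ± 0.09 (SE), adjusted p = 3.38e-08), and Add2 higher (5.13 ± 0.38 (SE), adjusted p = 7.07e-06).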

How the data were processed

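Total RNA of 20 libraries (4 of the Wdr34 clone and 16 of 4 control clones, all non-ciliated) had been sequenced on a NovaSeq by the study. The deposited files hold raw counts per gene symbol, which the authors made with Rsubread and featureCounts in R 3.4.4 on GRCm38 (mm10) and tested with DESeq2 1.18.1. Strand and the treatment of reads with several matches are not given in the sources used here, so antisense, overlapping and multi-copy genes are uncertain. No per-sample column was left unmapped. Of 24421 symbols, 12355 passed filterByExpr and were tested with edgeR 4.0.16 (R 4.3.3), using TMM scaling and the 2-sided quasi-likelihood test. Calls needed a Benjamini-Hochberg p under 0.05 together with a change of 1 or more on the log2 scale. A standard error is the size of the log2 fold change over the square root of F. Of the genes tested, 12319 (99.7%) matched RefSeq GRCm38.p6 for positions. Intervals and floors cover counting error only, and these libraries have no stated molecular identifiers.

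Named genes were the dynein-2 subunits, the 15 largest called changes in each direction with all 4 Wdr34 libraries outside the control range and a mean of at least 5 CPM in the higher arm (unnamed gene models left out), up to 4 called members of each list, and the 8 genes the study names in both states. Members, lists and this rule were chosen with earlier results of these data known. DESeq2 1.42.0, other scalings and filters, sums per clone, limma 3.58.1 with the clone as a block, a replicate block and leaving out libraries and clones were run as alternatives. Scripts were tested on simulated data. Some genes that these rules select are not reported here.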

Additional observations from a re-analysis of the deposited data

Results flagged for a closer look

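The gap between the highest or lowest value and its nearest neighbour, over the whole range, was tested in 147 groups of 4 (the 4 Wdr34 libraries or the 4 control clone means of a gene, and total counts), and 13 passed Dixon's 95% critical value, where chance passes about 5%. Among the Wdr34 libraries these were Dynll1 (0.844, replicate 4 at 416 CPM against 374 to 380), Lrp2 (0.895, replicate 2 at 3.73 CPM against 4.66 to 4.77), Flrt1 (0.835, replicate 4 at 1.27 CPM against 1.01 to 1.05) and the total count (0.836, replicate 2 at 20505629 counts).

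Among the control clone means, control 2 stood high for Tspan15 (0.856, 31.7 CPM against 5.73 to 9.48), Flrt1 (0.942, 45.2 CPM against 5.88 to 8.18) and Bmp3 (0.84, 39.0 CPM against 1.09 to 7.14). Control AB stood high for Myo5c (0.831, 7.55 CPM against 0.442 to 1.64) and Pitx1 (0.847, 14.03 CPM against 0.447 to 2.52), and low for Il11 (0.905, 0.521 CPM against 6.30 to 6.91). Control 3 stood high for Elmod1 (0.846, 10.8 CPM against 0.0641 to 1.71) and Rgs2 (0.841, 1.09 CPM against 0.263 to 0.394). Control 1 stood low for Wdr60 (0.92, 19.5 CPM against 24.5 to 24.9). The fold changes of these genes rest in part on 1 control clone.

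For 3 named genes the fold change differed between the non-ciliated Wdr34 clone and the ciliated Wdr34 clone 1 by edgeR's test of the interaction. The difference was -4.62 ± 1.19 (SE, adjusted p = 0.0416) for Sorl1, with -5.31 against -0.70. It was -4.12 ± 0.82 (adjusted p = 0.00738) for Lbp, with -4.35 against -0.25. It was -1.93 ± 0.39 (adjusted p = 0.00884) for Kcnj16, with -2.03 against -0.12.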

How the results depend on the processing

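Beside the 58 called genes named by the rule, 7 were followed that were chosen after their values were seen (Panx1, Sept3, Serpinh1, Usp13, Tnk1, Traf1 and Hlx). None of these 65 changed sign in any alternative run. When counts were summed per clone 65 lost significance, with the clone as a block in limma 64 did, at an adjusted p under 0.01 33 did, without some 1 control clone 14 did, and with DESeq2 0 did. Genes called higher and lower numbered 43 and 459 with DESeq2, 61 and 224 with a filter of 1 count in any library, 17 and 124 with at least 10 counts in every library, 0 and 0 summed per clone, 1 and 1 with the clone as a block, 280 and 455 with a term for each clone, 728 and 692 with no fold limit, and 16 and 83 at an adjusted p under 0.01. Scaling by RLE gave 33 and 247, by upper quartile 29 and 269. Leaving out 1 library gave 21 to 45 and 95 to 324 (21 and 95 without Wdr34 replicate 2, 45 and 324 without replicate 1 of control AB). Leaving out 1 control clone gave 47 to 96 and 242 to 413, and 514 to 1194 genes above and 396 to 908 below the control libraries, the most without control AB. Of the list members 8 were called higher and 29 lower. The higher ones became 4 with 10 counts in every library, 0 summed, 1 with the block, 55 with a term for each clone, 35 with no fold limit, 5 at an adjusted p under 0.01, and 6 to 17 on leaving out a library or clone. The lower ones became 62 with DESeq2, then in the same order 19, 0, 0, 66, 58 and 9, 44 with all 6 non-ciliated clones in 1 fit, and 10 to 71. The median of chromosome 3 stayed between 0.20 and 0.45 without 1 control clone, the lowest without control 3. The ciliated clone gave 50 and 191 calls with DESeq2. Same-numbered libraries of the Wdr34 clone and a control had correlated deviations of 0.105 to 0.167 in the 4 pairs of replicate 4 and of -0.0204 to 0.0810 in the other 12, so not every pair passed 0.1 and the numbers were not taken as pairs. Wdr34 replicate 4 correlated best with its own number in 4 of 4 controls, replicate 1 in 3, replicate 2 in 2 and replicate 3 in 0, which is a hint from the data and not the design. A replicate block gave 28 and 174, and with it Rgs16, Abcg2, Npy2r, Tmem178, Ehf, Muc1, Hsd11b2, Bmp3, Fgfr3, Ntn1, Il11, Cxcl5 and H19 lost their call. Fewer genes or samples enter several of these settings, and the cause of the other differences was not tested. Depth limits genes with no count to the bounds given.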

Other observations

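Serpinh1, the chaperone that folds collagen in the endoplasmic reticulum, was low in the Wdr34 clone and in 1 control. It was at 1.12, 1.276, 1.20 and 1.09 CPM in the Wdr34 libraries. Control 3 held 0.485 CPM, and controls AB, 1 and 2 held 118, 120 and 146 CPM. So the call (log2 fold change -6.35 ± 1.60 SE, adjusted p = 0.0149 by edgeR) set the Wdr34 clone against 3 of the 4 controls. In the ciliated cells Serpinh1 was at 1.78 CPM in Wdr34 clone 1, 0.249 CPM in control D8, 12.8 CPM in control H12 and 81.6 and 84.0 CPM in controls A4 and G7. In the non-ciliated Wdr60 clone it was at 139 CPM. Usp13, a deubiquitinase, was low in the same clones and, at 0.163 CPM, in the Wdr60 clone as well. It had 3 counts in the Wdr34 clone, was at 0.0119 CPM in control 3 and at 6.21, 6.22 and 8.07 CPM in controls AB, 1 and 2. Both genes lost their call without any 1 of the 4 Wdr34 libraries and were chosen after their values were seen.

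The histone genes of the Hist1 cluster were mostly on the positive side without a call. Of 38 tested, 35 had a positive log2 fold change, with a median of 0.52, and 0 were called (smallest adjusted p = 0.0836 by edgeR). The run of 51 genes around the cluster, chr13:19357676-23757386 (GRCm38.p6), had the highest median of chromosome 13, 0.45. Against the mean of the 4 control clones that run stood at 0.38 in the Wdr34 clone, -0.19 in control AB and 0.23 in control 1.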
